A study of Arabidopsis thaliana with 9 samples.

Results

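The genes described here encode HFR1, the phytochrome-interacting factors (PIFs) and the related proteins PIL1 and PAR1, basic helix-loop-helix (bHLH) and helix-loop-helix proteins of light signalling. The list holds 8 loci: HFR1 (AT1G02340), PIL1 (AT2G46970), PIF1 (AT2G20180), PIF3 (AT1G09530), PIF4 (AT2G43010), PIF5 (AT3G59060), PIF7 (AT5G61270) and PAR1 (AT2G42870). Of these, 6 were measured among the 20777 loci of the table, and PIL1 and PIF7 were not analysed here. The list was drawn up with earlier results for all 3 genotypes known. Which values chose the members is not stated. HFR1 is treated here as chosen by its measured difference between 35S::GA20OX and wild type, and the others as its relatives and partners. All differences between 35S::GA20OX and wild type for the measured members, and all differences of HFR1 that involve 35S::GA20OX, are therefore given as a description without a test. The adjusted p-values given for other contrasts describe these arrays and are not independent support.

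Transcripts were measured on Affymetrix ATH1 arrays in Col-0 seedlings of Arabidopsis thaliana, of which the vegetative part was taken at growth stage 1.03. The plants were grown on MS medium at 22°C with 16 h of light and 8 h of darkness. The genotypes were 35S::JAW, 35S::GA20OX and wild type, with 3 biological replicates each. In 35S::JAW the strong, broadly active 35S promoter drives JAW, the locus of the microRNA miR319a, which directs cleavage of transcripts of TCP genes that limit leaf growth. In 35S::GA20OX the same promoter drives a gibberellin 20-oxidase, an enzyme of gibberellin synthesis. How many independent transformants stand behind each line, and the time of day at harvest, are not stated in the labels. Values are log2 expression, and 1 unit is a doubling. A locus is said to rise or fall only where its limma p-value, adjusted by the Benjamini-Hochberg method over all loci, was under 0.05.

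PIFs are transcription factors that bind G-box and related E-box DNA and promote elongation growth in darkness and shade. Light-activated phytochromes bind them, and most PIF proteins are then degraded. HFR1 and PAR1 lack the DNA-binding capacity of the PIFs, pair with PIF proteins and keep them from DNA, so that in canopy shade they limit the response that PIFs promote. DELLA proteins, the repressors that gibberellin removes, also bind PIFs and block them. These proteins are controlled in large part at the level of stability and binding, which transcript arrays do not measure.

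The arrays followed their labels. GA20OX1 had a mean of 12.96 in 35S::GA20OX and 6.06 in wild type, and TCP4, a target of miR319a, had a mean of 5.73 in 35S::JAW and 8.65 in wild type. Array medians lay between 6.35 and 6.41, and Pearson's r across loci within a genotype was 0.9957 to 0.9976. 35S::JAW replicate 2 had the lowest mean correlation with its own group, 0.9959, and the highest lower quartile, 4.42. The leaf genes CA1 and RCA lay between 13.65 and 14.32 on all arrays, 4 floral organ markers between 3.25 and 4.88 and 4 seed storage markers between 3.87 and 4.66. Of 6 root markers, the highest was PYK10, a beta-glucosidase of roots and seedlings, with means of 10.83 in 35S::JAW, 10.87 in 35S::GA20OX and 11.05 in wild type. The other root markers, COBL9, EXPA7, PRP3, TIP2;3 and IRT1, lay between 3.41 and 5.09, within or near the range of the floral and seed markers. None of these markers passed the threshold in any comparison, and the part that tissue makeup plays in the results below was not tested.

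HFR1 was the member that differed most between genotypes, and its 3 groups of arrays did not overlap. HFR1 takes part in far-red and shade signalling. Its log2 values were 6.55, 5.98 and 6.31 in 35S::JAW, 7.47, 7.11 and 7.62 in 35S::GA20OX, and 5.95, 5.77 and 5.81 in wild type. Every 35S::GA20OX array stood above every 35S::JAW array, and every 35S::JAW array stood above every wild-type array, the closest pair being 35S::JAW replicate 2 and wild type replicate 1. Over all loci, 14.3% had 35S::JAW below 35S::GA20OX without overlap, and 14.2% had 35S::JAW above wild type. The means were 6.28 ± 0.28 (SD, n = 3) in 35S::JAW, 7.40 ± 0.26 in 35S::GA20OX and 5.84 ± 0.10 in wild type. In bulk tissue, a change in the share of cells that express a gene and a change of its RNA per cell cannot be told apart.

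The log2 difference of HFR1 between 35S::GA20OX and wild type was 1.55 ± 0.15 (SE), or 2.94-fold. Among all loci this was the second highest increase, after the transgene GA20OX1, and the third in absolute size. It stayed between 1.44 and 1.70 when each of the 9 arrays was left out in turn. HFR1 was 1 of 6 measured members past the threshold in 35S::GA20OX, where 0.332% of all loci were past it, and the arrays of 2 members, HFR1 and PIF1, stood above wild type without overlap, as did those of 8.53% of loci. Since HFR1 is treated as listed for this contrast, nothing is read from these counts.

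In 35S::JAW the log2 difference of HFR1 from wild type was 0.44 ± 0.15 (SE), or 1.35-fold, and did not pass the threshold (limma adjusted p = 0.11). Its 95% interval ran from 0.11 to 0.77. The difference depended on single 35S::JAW arrays. Without replicate 2, the lowest of its group, it was 0.58 (limma adjusted p = 0.0291). Without replicate 1, the highest of its group, it was 0.30 (adjusted p = 0.314). With array weights it was 0.49 (adjusted p = 0.0412). No other array, left out in turn, brought the adjusted p under the threshold. HFR1 was lower in 35S::JAW than in 35S::GA20OX by a log2 difference of -1.12 ± 0.15, so the 35S::JAW mean lay between those of 35S::GA20OX and wild type.

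**Figure D1:**
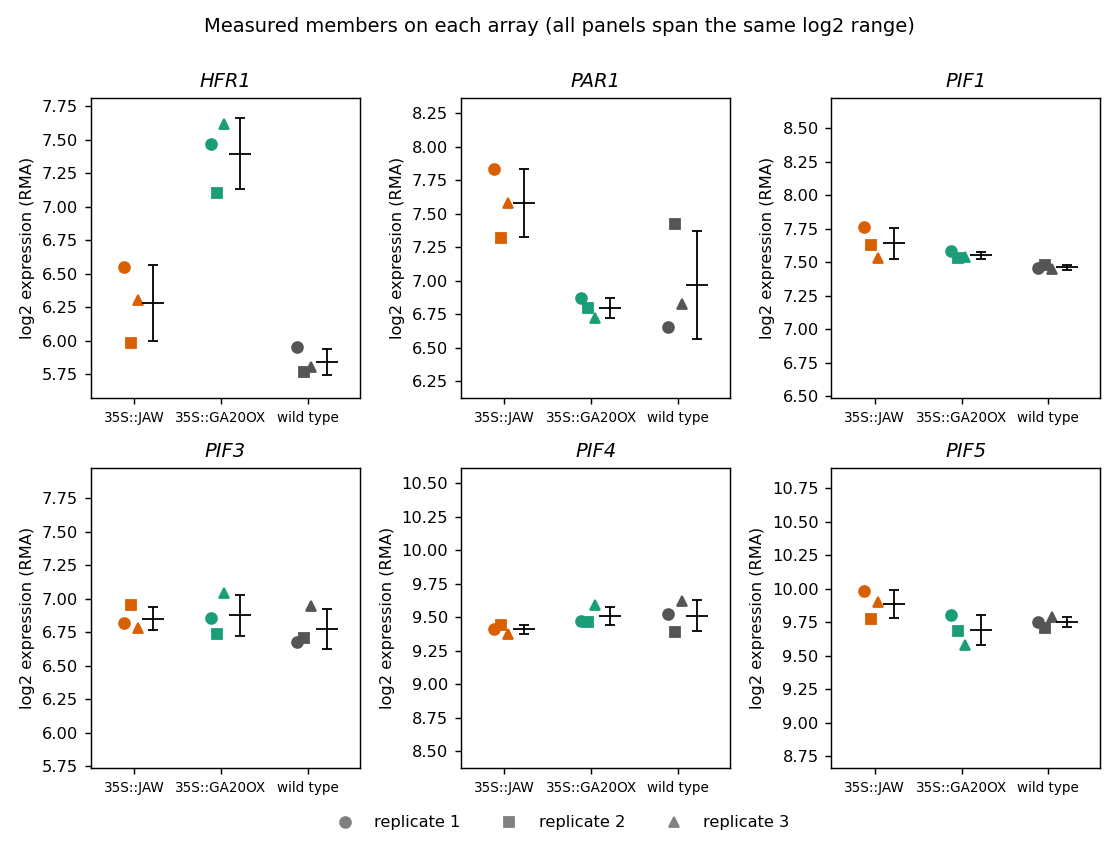
Log2 expression of the 6 measured members on each array, by genotype from left to right 35S::JAW, 35S::GA20OX and wild type. Symbols mark replicates, horizontal bars with whiskers give the mean and SD of 3 arrays, and every panel spans the same log2 range. HFR1 separates the genotypes, PAR1 is highest in 35S::JAW apart from wild type replicate 2, and the PIF genes move little.

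PAR1, a small helix-loop-helix protein that binds PIF4 and other bHLH factors and was named for its rapid response to phytochrome, had a different order of levels. Its log2 values were 7.83, 7.32 and 7.58 in 35S::JAW, 6.87, 6.79 and 6.72 in 35S::GA20OX, and 6.65, 7.42 and 6.83 in wild type. The 35S::JAW arrays were all above the 35S::GA20OX arrays, as were those of 15.9% of loci. Wild type replicate 2, however, lay inside the 35S::JAW range, above 35S::JAW replicate 2. The means were 7.58 ± 0.26 (SD, n = 3) in 35S::JAW, 6.80 ± 0.07 in 35S::GA20OX and 6.97 ± 0.40 in wild type. PAR1 was higher in 35S::JAW than in 35S::GA20OX by 0.78 ± 0.18 (SE) on the log2 scale, or 1.72-fold, and this difference passed the threshold (limma adjusted p = 0.0139). That call was lost without 35S::GA20OX replicate 3 (adjusted p = 0.051) and without 35S::JAW replicate 1 (adjusted p = 0.0566).

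Against wild type, the log2 difference of PAR1 in 35S::JAW was 0.61 ± 0.18 (SE), or 1.53-fold, just short of the threshold (limma adjusted p = 0.0599). The 95% interval was 0.22 to 0.999. Wild type replicate 2 weighed most on this value: without it the difference was 0.84 (adjusted p = 0.004). Without 35S::JAW replicate 2 it was 0.74 (adjusted p = 0.0374), and without wild type replicate 1 it was 0.45 (adjusted p = 0.217), the lowest value with 1 array left out. It passed with array weights (0.77, adjusted p = 0.0107) and without the dimmest 40% of loci (adjusted p = 0.0394). In 35S::GA20OX the log2 difference from wild type was -0.17 ± 0.18, and it was 0.06 without wild type replicate 2. The spread of PAR1 within genotypes, a pooled SD of 0.28, was at or above that of 98.4% of all loci, and that of HFR1, 0.23, at or above that of 96.5%.

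The 4 measured PIF genes varied far less than HFR1 and PAR1: their ranges over the 9 arrays were 0.25 to 0.40 on the log2 scale, against 1.85 for HFR1 and 1.18 for PAR1. PIF1, which holds back seed germination and chlorophyll synthesis in the dark, had the smallest spread within genotypes among the members. Its log2 values were 7.76, 7.63 and 7.53 in 35S::JAW, 7.58, 7.53 and 7.54 in 35S::GA20OX, and 7.46, 7.48 and 7.45 in wild type. Every transgenic array stood above every wild-type array, while the arrays of the 2 lines overlapped. The log2 difference of PIF1 from wild type was 0.18 ± 0.07 (SE) in 35S::JAW, which did not pass the threshold (limma adjusted p = 0.156), and 0.09 ± 0.07 in 35S::GA20OX. Its pooled SD of 0.07 was at or above that of only 19.2% of loci.

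PIF3, the founding member of the family, which maintains dark-grown development, overlapped in all 3 genotypes. Its log2 values were 6.82, 6.95 and 6.78 in 35S::JAW, 6.85, 6.74 and 7.04 in 35S::GA20OX, and 6.67, 6.71 and 6.95 in wild type. The difference from wild type was 0.08 ± 0.10 (SE) in 35S::JAW (limma adjusted p = 0.73) and 0.10 ± 0.10 in 35S::GA20OX. The 95% intervals, -0.14 to 0.29 and -0.12 to 0.32, bound any change of PIF3 in these arrays.

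PIF4, which drives elongation in warmth and shade, had log2 values of 9.41, 9.44 and 9.37 in 35S::JAW, 9.47, 9.47 and 9.59 in 35S::GA20OX, and 9.53, 9.39 and 9.62 in wild type. The 35S::JAW arrays lay below the 35S::GA20OX arrays, as did those of 14.3% of loci. The 35S::JAW arrays overlapped those of wild type, whose replicate 2 was the lowest wild-type array for PIF4 and the highest for PAR1. The log2 difference was -0.10 ± 0.07 (SE) in 35S::JAW against wild type (limma adjusted p = 0.487) and -0.10 ± 0.07 against 35S::GA20OX (adjusted p = 0.459). Between 35S::GA20OX and wild type it was -0.003 ± 0.073, with a 95% interval of -0.16 to 0.16.

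PIF5, a close relative of PIF4 that acts with it in elongation growth, had log2 values of 9.98, 9.77 and 9.90 in 35S::JAW, 9.80, 9.69 and 9.58 in 35S::GA20OX, and 9.75, 9.71 and 9.79 in wild type. Only 35S::JAW replicate 2 kept the 35S::JAW arrays from standing clear of both other groups. PIF5 differed by 0.13 ± 0.08 (SE) in 35S::JAW against wild type (limma adjusted p = 0.378) and by 0.19 ± 0.08 against 35S::GA20OX (adjusted p = 0.143). Neither difference passed under any alternative, including without 35S::JAW replicate 2. The lowest limma adjusted p was 0.218 against wild type and 0.0596 against 35S::GA20OX. In 35S::GA20OX the difference from wild type was -0.06 ± 0.08, with a 95% interval of -0.23 to 0.11.

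Counted together, 0 of 6 measured members passed the threshold in 35S::JAW against wild type, where 8.32% of all loci did. At an unadjusted p under 0.05 limma gave 3 of 6 (HFR1, PAR1 and PIF1), against 20.7% of all loci. The arrays of 2 members, HFR1 and PIF1, stood above wild type without overlap, as did those of 14.2% of loci. The median log2 difference of the members was 0.16, against 0.01 over all loci. In 35S::GA20OX against wild type the members other than HFR1 had differences between -0.17 and 0.10, and the median over all 6 was 0.04, against 0.00 over all loci. The 2 comparisons share the wild-type arrays. Between the lines, 35S::JAW against 35S::GA20OX, PAR1 passed the threshold as higher, as did 6.71% of all loci. HFR1, treated as listed for its level in 35S::GA20OX, was on the lower side past it, with 6.52% of loci.

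**Figure D2:**
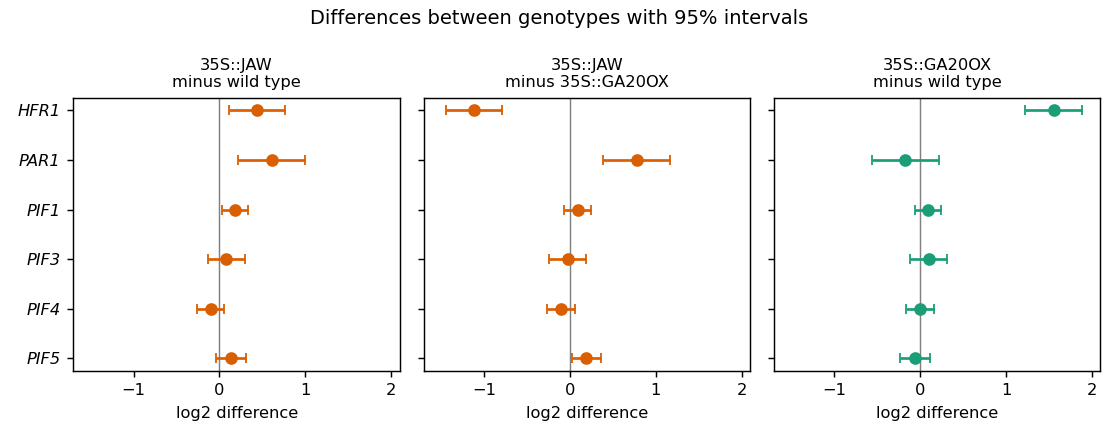
Log2 differences of the 6 measured members with 95% intervals from limma, for 35S::JAW minus wild type, 35S::JAW minus 35S::GA20OX and 35S::GA20OX minus wild type. HFR1 stands at 1.55 in 35S::GA20OX and 0.44 in 35S::JAW relative to wild type, PAR1 at 0.61 in 35S::JAW, and all intervals of PIF3 and PIF4 include 0.

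The loci whose pattern over the 9 arrays was most like that of HFR1 were sought among 770 loci that ranged over at least 1 log2 unit. The highest Pearson's r with HFR1 was 0.91, for AT1G10640, followed by 0.89 for the transgene GA20OX1, 0.86 for the jacalin-related lectin gene JAL23 (AT2G39330), 0.84 for the wax alkane synthesis gene CER1 (AT1G02205) and 0.82 for AT4G20320. These values describe 9 arrays that fall into 3 genotypes. Since HFR1 was highest in 35S::GA20OX, loci that are high there, the transgene among them, rank high in such a search. Each of the 5 loci had its highest array in 35S::GA20OX, which also widened the range used as a filter. Nothing is therefore read from their place in this ranking. As for HFR1, the 35S::JAW mean lay between the others for AT1G10640, with 7.80 in 35S::JAW, 8.41 in 35S::GA20OX and 7.74 in wild type, and for AT4G20320, with 6.68, 7.02 and 6.48 in the same genotypes. It was the lowest for CER1, with 9.54 in 35S::JAW, 10.49 in 35S::GA20OX and 9.71 in wild type. It was also the lowest for the dim gene JAL23, with 3.83, 4.82 and 4.002 in these genotypes. The 35S::JAW and wild-type arrays overlapped for AT1G10640, AT4G20320, CER1 and JAL23. GA20OX1 went the other way from HFR1 in 35S::JAW: it fell against wild type without overlap, with a log2 difference of -0.85 ± 0.09 (SE, limma adjusted p = 0.000235).

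Other genes of the pathway were followed in 6 lists with 70 loci, of which 62 were measured under matching names. In 35S::JAW against wild type 2 rose and 10 fell, where 4.34% of all loci rose and 3.98% fell. In 35S::GA20OX against wild type 1 rose and 0 fell, where 0.164% of all loci rose and 0.168% fell. At an unadjusted p under 0.05, limma gave 23 of the 62 genes in 35S::JAW and 9 in 35S::GA20OX. The shares of all loci, against which all such counts are to be read, were 20.7% and 10.5%. In 35S::JAW these were 2 of 7 photoreceptor, 3 of 11 COP1/SPA and HY5 and 6 of 11 other bHLH and HLH genes. The rest were 7 of 15 shade- and PIF-induced, 2 of 10 greening and 3 of 8 DELLA and gibberellin receptor genes. In 35S::GA20OX the counts were 0, 0, 3, 2, 0 and 4 in the same order. Since the lists were chosen with earlier results known, nothing is read from these counts. The median log2 differences of the 62 genes were -0.05 and 0.01, against 0.01 and 0.00 over all loci. Among 7 photoreceptor genes, the phytochromes and cryptochromes that act upstream of the PIFs, none passed in either line against wild type (limma, with 2 in 35S::JAW and 0 in 35S::GA20OX at an unadjusted p under 0.05). PHYA had the largest differences there, 0.24 ± 0.12 (SE) in 35S::JAW and -0.13 ± 0.12 in 35S::GA20OX. The COP1/SPA and HY5 list, with 11 measured genes, joins COP1 and the SPA genes, which act in the degradation of HFR1 and other light regulators, with regulators of light responses such as HY5. In it, HYH, a relative of HY5, fell by 0.40 ± 0.08 (SE) in 35S::JAW (adjusted p = 0.0122, and 0.0589 without wild type replicate 3). HYH, and ALC and YUC8 below, were among the dimmest 40% of loci, at levels within or near the range of the floral and seed markers, so these signals were not shown to be above background. None of the COP1/SPA and HY5 list passed in 35S::GA20OX (limma, with 0 at an unadjusted p under 0.05), where SPA4 had 0.19 ± 0.09.

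Among 11 other bHLH and HLH growth regulators, BEE3, a bHLH gene induced by brassinosteroid, rose by 1.21 ± 0.10 (SE) in 35S::JAW (limma adjusted p = 2.28e-05), and ALC fell by 0.34 ± 0.07 (adjusted p = 0.012, and 0.0517 without wild type replicate 3, for a dim locus). PRE1, a gibberellin-responsive HLH gene that promotes elongation, had log2 values of 6.30, 5.38 and 6.12 in 35S::JAW, 8.79, 8.40 and 8.63 in 35S::GA20OX, and 7.87, 7.75 and 7.97 in wild type. It fell by 1.93 ± 0.20 in 35S::JAW (limma adjusted p = 0.000122), and its difference in 35S::GA20OX was 0.74 ± 0.20 (adjusted p = 0.191). The latter stayed short of the threshold under 15 of 17 alternatives, with an adjusted p of up to 0.397. The exceptions were those without 35S::JAW replicate 2 (0.0171) and with only the 6 arrays compared (0.0266).

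A list of 15 genes was taken as induced by shade or PIFs, which was not checked for each gene. Of these, 4 fell and 1 rose in 35S::JAW, where 3.98% and 4.34% of all loci did. The auxin response genes IAA29 (-1.69 ± 0.21, SE) and IAA19 (-0.60 ± 0.09) fell. The homeobox gene HAT2 (-1.67 ± 0.09) and the dim auxin synthesis gene YUC8 (-0.40 ± 0.10) also fell, and the homeobox gene HAT1 rose by 0.51 ± 0.12. The YUC8 call (limma adjusted p = 0.0282) was lost without wild type replicate 2 or 35S::JAW replicate 1 or 3. It was also lost with only the 6 arrays compared (limma adjusted p = 0.0617). The HAT1 call (limma adjusted p = 0.0197) was lost without wild type replicate 3 or 35S::JAW replicate 1 or 3. In 35S::GA20OX none of the 15 passed (limma, with 2 at an unadjusted p under 0.05), and IAA19 was closest with 0.49 ± 0.09 (adjusted p = 0.051). IAA19 passed under 6 of 17 alternatives, among them those without 35S::JAW replicate 2 (adjusted p = 0.026) or replicate 3 (0.0458). It did not pass with any 35S::GA20OX or wild-type array left out (limma adjusted p = 0.108 to 0.175), or with a replicate block (0.0783). ATHB2, a marker of the shade response named here after its values were seen, had means of 6.73 in 35S::JAW, 6.73 in 35S::GA20OX and 6.77 in wild type. A further 10 greening genes were listed as repressed by PIFs, which was not checked for each gene. Of these, GLK1, a regulator of chloroplast development, fell by 0.27 ± 0.06 in 35S::JAW (limma adjusted p = 0.0203, rising to at most 0.0761 without wild type replicate 1 or 3 or 35S::JAW replicate 3). None of the 10 passed in 35S::GA20OX (limma, with 0 at an unadjusted p under 0.05), where HEMA1, which acts early in chlorophyll synthesis, had 0.21 ± 0.10. Of 8 DELLA and gibberellin receptor genes, RGL1 (-0.73 ± 0.09) and GAI (-0.42 ± 0.07) fell in 35S::JAW, and RGL2 rose by 0.62 ± 0.10 in 35S::GA20OX (limma adjusted p = 0.0287, and 0.108 to 0.138 without wild type replicate 2 or 3 or 35S::GA20OX replicate 2 or 3, and 0.0501 with only the 6 arrays compared).

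**Figure D3:**
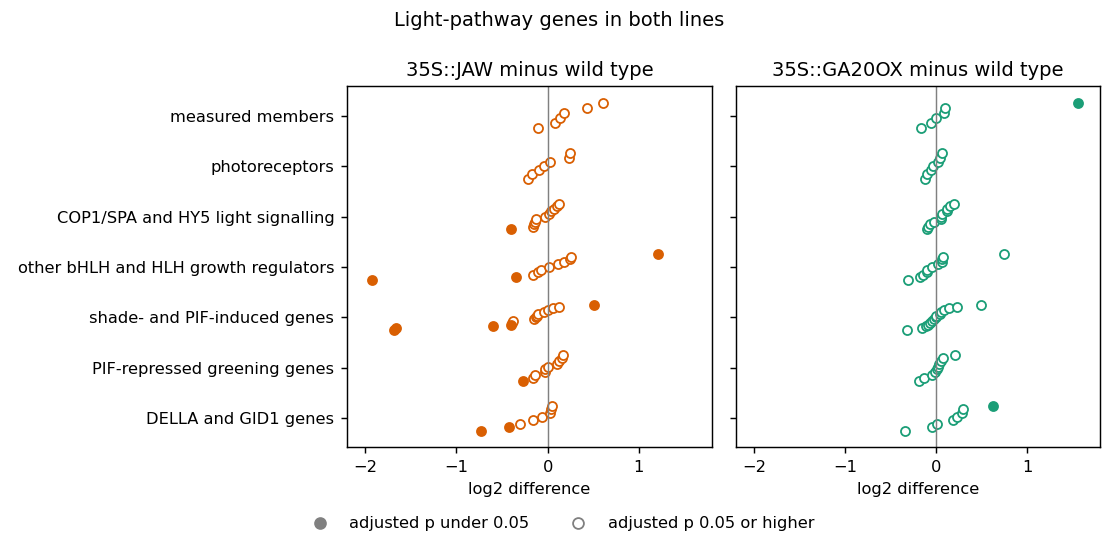
Log2 differences from wild type in 35S::JAW (left) and 35S::GA20OX (right) for the 6 measured members and the 62 other light-pathway genes, 1 point per gene and 1 row per list. Filled points passed an adjusted p of 0.05 over all loci: 12 list genes and no member in 35S::JAW, and 1 list gene and HFR1 in 35S::GA20OX.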

How the data were processed

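Per the submitters' processing notes, the authors used RMA, and the deposited values are log2 expression. RMA subtracts background, forces the arrays to one distribution and summarises probes, and it compresses changes of dim genes. No version, chip definition or genome build is stated in the labels. The table has 1 row per locus. It gives neither detection calls nor batches, so neither could be used, and probes shared between related genes were not checked. Names came from a RefSeq table of TAIR10.1, which held 20508 of 20777 loci. In the lists, PIF8 and PRE2 were dropped because their names did not match it.

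Differences were fitted in R 4.3.3 with limma 3.58.1, using lmFit on all 9 arrays with a mean for each genotype, and then eBayes (6 residual degrees of freedom, 5.04 from the prior). All p-values are two-sided and adjusted by Benjamini-Hochberg over all loci, with no filter on dim loci, and the script was tested on simulated data. Members and lists were chosen with earlier results of these data known. The rule named all measured members, the transgene and TCP checks, up to 3 called genes per direction and list (otherwise the one with the largest difference) and the 5 loci most like HFR1. YUC8 and ATHB2 were added after their values were seen. The labels call the replicates biological, and 3 arrays per genotype limit the precision. Alternatives were cyclic loess, median centring, leaving out the dimmest 40% of loci, a robust prior with an intensity trend, array weights, a replicate block, an adjusted p of 0.01, fitting only the 6 arrays of a comparison, and leaving out each array in turn.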

Additional observations from a re-analysis of the deposited data

How the results depend on the processing

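No difference of a member changed sign in a call under any alternative run. The difference of HFR1 between 35S::GA20OX and wild type stayed between 1.44 and 1.70, and 1 member was past the threshold under all 17 alternatives. Since HFR1 is treated as listed for this contrast, nothing is read from these passes, and several alternatives leave the estimate itself unchanged. In 35S::JAW against wild type, the count of members past the threshold, 0 in the main setting, was 1 without the dimmest 40% of loci (PAR1), 2 with array weights (HFR1 and PAR1), 1 with the replicate block (HFR1, adjusted p = 0.0256), and 0 to 2 with 1 array left out. Between the lines it was 1 in place of 2 at an adjusted p of 0.01, and 1 to 2 with 1 array left out. Over all loci, 69 were called in 35S::GA20OX against wild type. This became 108 without the dimmest 40%, 205 with an intensity trend and robust prior, 15 at an adjusted p of 0.01 and 22 to 79 with 1 array left out. In 35S::JAW against wild type 1729 were called, 866 at an adjusted p of 0.01 and 1074 to 1682 with 1 array left out. Between the lines 2749 were called, and 1371 at an adjusted p of 0.01. Of the 62 list genes 1 was called in 35S::GA20OX: 2 without the dimmest 40%, with array weights and with only the 6 arrays compared, 3 with an intensity trend and robust prior, 0 with the replicate block and at an adjusted p of 0.01, and 0 to 3 with 1 array left out. In 35S::JAW 12 were called, 7 at an adjusted p of 0.01. Between the lines 16 were called, 10 at an adjusted p of 0.01 and 10 to 17 with 1 array left out. IAA19 in 35S::GA20OX, not called in the main setting, passed without the dimmest 40% (adjusted p = 0.0268), with an intensity trend and robust prior (0.00923), with array weights (0.0258), with only the 6 arrays compared (0.0404) and without 35S::JAW replicate 2 or 3. It did not pass with any 35S::GA20OX or wild-type array left out (limma adjusted p = 0.108 to 0.175), or with the replicate block (0.0783). The cause of these shifts was not tested. Replicate numbers did not pair the arrays: correlations of same-numbered deviations ran from -0.102 to 0.251, and 4 of 9 arrays correlated best with their own number. The RGL2 call in 35S::GA20OX was lost with the replicate block (adjusted p = 0.052), with only the 6 arrays compared (0.0501), at an adjusted p of 0.01 and without wild type replicate 2 or 3 or 35S::GA20OX replicate 2 or 3. Without detection calls, signal over background could not be judged, which bears on the calls of HYH, ALC and YUC8 in 35S::JAW: all 3 were among the dimmest 40% of loci and have no value in that setting.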
